A study of Mus musculus with 5 samples.

Results

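Cholesterol synthesis and its control were read from 31 genes, chosen by symbol for what their products are known to do, out of the 24421 gene symbols in the count tables. The 31 were 7 enzymes of the mevalonate pathway, 11 enzymes that carry squalene to cholesterol, 5 genes of SREBP control, 4 genes of LXR and sterol efflux, and 4 genes of sterol carriage and esterification. Of these, 30 passed the filter on low counts and were tested. The exception was *Lcat*, which had 2 to 7 counts in each mouse.

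RNA was sequenced from cortical kidney tissue of 3 *Fnip1*-/- mice (8637, 9210 and 9121) and 2 *Fnip1*+/+ mice (9055 and 9056), all on the C57BL6J background, with 1 library per mouse. *Fnip1* encodes a partner of Folliculin and of the energy sensor AMP kinase, and the comparison asks how its loss alters mRNA in the kidney. The null allele came from ENU mutagenesis and was present in all cells of the animal, in tubule cells, vessels and immune cells alike. The controls are called wildtype here after their labels, although a passage of the study names them *Fnip1*+/- and a legend gives another number of them than the labels. The count table assigned to mouse 9210 carries a different mouse number in its own name, and the label was followed. The labels give neither age nor sex, and the ages that the study gives for its sequenced mice are those of adults.

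Gene counts per mouse ran from 15799114 to 19132145, at which depth 3 counts correspond to 0.158 to 0.186 CPM, the counts scaled to library size and normalized by TMM. Levels below are in that CPM, errors are SD, and changes are log2 fold changes of *Fnip1* null over wildtype with their standard error (SE) from edgeR's quasi-likelihood test, adjusted over the 13874 genes tested. *Fnip1* itself had 356, 285 and 303 counts in null mice 8637, 9210 and 9121, and 833 and 851 counts in wildtype mice 9055 and 9056. It was lower by the test (log2 fold change -1.48, SE 0.138, adjusted p = 0.033). Mouse 9121 stood apart from the other 4 in having 5954 counts of *Xist* and 0 counts of the Y-linked gene *Ddx3y*. The other mice had 3 to 24 counts of *Xist* and 720 to 885 of *Ddx3y*. Mouse 8637 lay nearest to the wildtype mice for several of the genes below, and results that rest on it are given with and without it.

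Cells make cholesterol from acetyl-CoA. The mevalonate pathway builds the isoprenoid farnesyl diphosphate, squalene is made from that, and a further chain of enzymes closes, trims and reduces the sterol rings. SREBP transcription factors switch these enzymes on: when membrane sterol is scarce, Scap escorts SREBP from the endoplasmic reticulum to the Golgi to be cut free, and when sterol is plentiful the Insig proteins hold it back. LXR receptors answer to oxysterols and turn on the exporters Abca1 and Abcg1, so the 2 systems usually run against each other.

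Few of the sterol genes passed the test in *Fnip1* null kidneys. *Fdps* was the single one of the 30 tested genes past an FDR of 5% (3.33%), and it rose. Among all genes tested 94 passed (0.678%), 73 of them higher in null mice (0.526%). In this quasi-likelihood test 0 sterol genes passed both the FDR and a 2-fold change, which 73 genes did overall (0.526%), while 2 (6.67%) did in each of edgeR's exact test (4.11% of all genes), its likelihood ratio test (4.53%) and DESeq2 (3.51%). Without the adjustment, 15 of the 30 (50%) had p under 0.05, 7 higher and 8 lower, against 25.1% of all genes. The 3 null mice were all above both wildtype mice for 8 of the 30 (26.7%, against 22.9% of all genes) and all below for 13 (43.3%, against 23% of all genes). The median log2 fold change was -0.11 over the 30 genes, -0.25 over the 18 synthesis enzymes and 0.15 over the other 12, beside 0.00 over all genes tested.

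**Figure D1:**
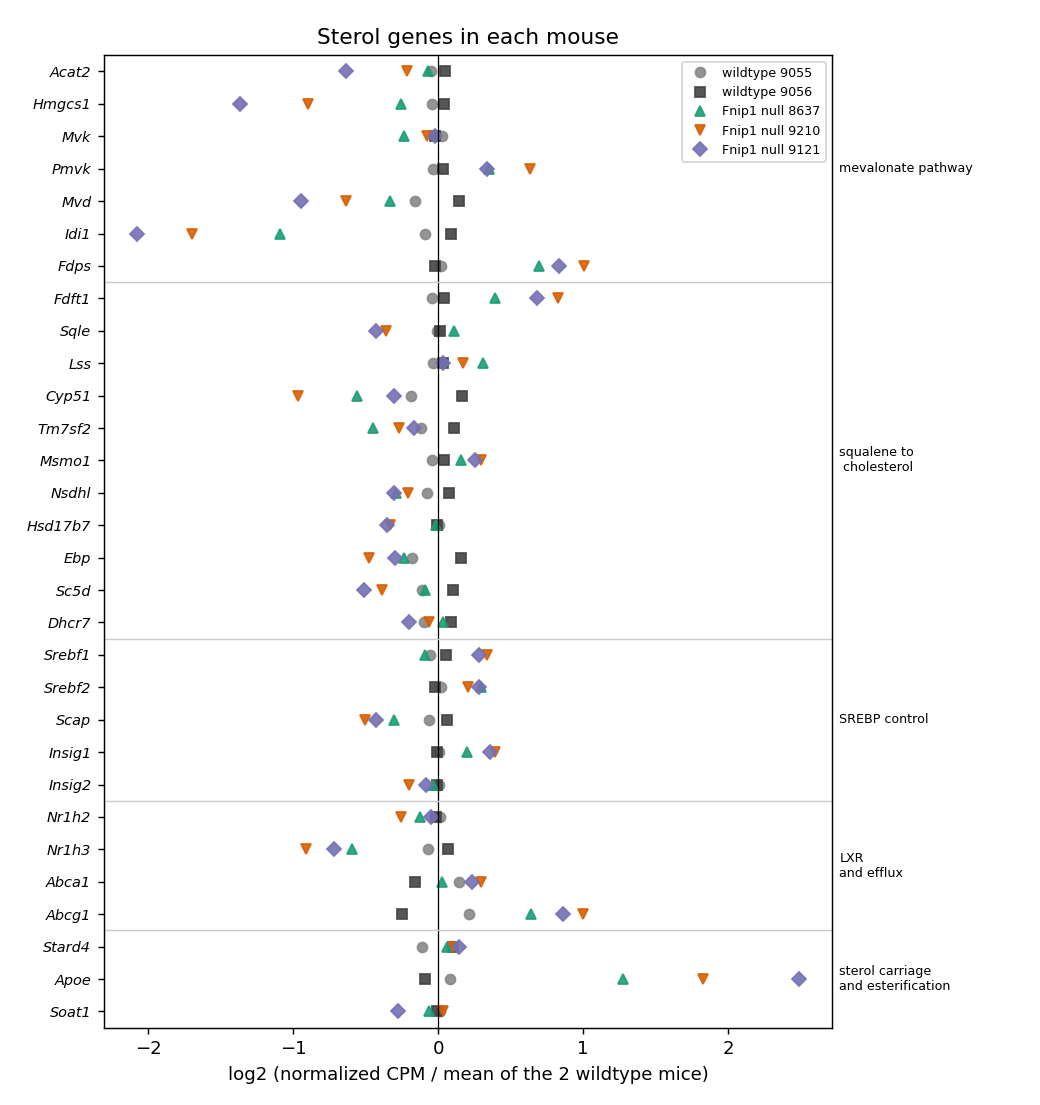
Level of each of the 30 tested sterol genes in each of the 5 mice, as log2 of its normalized CPM over the mean of the 2 wildtype mice (x axis), grouped by role (y axis). *Idi1* and *Hmgcs1* lie to the left and *Fdps*, *Fdft1*, *Abcg1* and *Apoe* to the right, with null mouse 8637 (green) nearest to the wildtype mice for *Idi1*, *Hmgcs1*, *Fdft1* and *Apoe*.

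In the mevalonate pathway, the neighbouring steps *Idi1* and *Fdps* lay on opposite sides of the wildtype mice. *Idi1* (ENSMUSG00000058258, chromosome 13, 8885501 to 8892451, plus strand), which converts isopentenyl diphosphate to its isomer, was at 84.0, 55.0 and 42.3 CPM in null mice 8637, 9210 and 9121 and at 168 and 189 CPM in wildtype mice 9055 and 9056. Every null mouse lay below both wildtype mice, and the means of 60.4 ± 21.4 (n = 3) and 178 ± 15.5 (n = 2) differed 2.95-fold. The log2 fold change of -1.56 (SE 0.268) missed the FDR threshold (adjusted p = 0.0645). *Fdps* (ENSMUSG00000059743, chromosome 3, 89093588 to 89101959, minus strand), which uses that isomer to build farnesyl diphosphate, was at 37.5, 46.3 and 41.2 CPM in the null mice and at 23.4 and 22.8 CPM in the wildtype mice. It rose 1.80-fold, from 23.1 ± 0.424 to 41.7 ± 4.46 CPM (log2 fold change 0.85, SE 0.121, adjusted p = 0.0495), with no overlap of the groups. This call sat just inside the threshold: no gene at all, *Fdps* included, was called when null mouse 9210 or either wildtype mouse was left out (0% of genes in each case). At an unadjusted p under 0.05, 10 of the 30 sterol genes passed without 9210 (33.3%, against 14.9% of all genes), 11 without 9055 (36.7%, against 17.6%) and 6 without 9056 (20%, against 8.71%). In GENCODE, 26.7% of the exon bases of *Fdps* are shared with *Gm43738* on the same strand, and how reads there were assigned is not known.

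*Idi1* and *Fdps* can also be read against each other within a library, a ratio chosen after the values were seen. There were 7.16 and 8.30 *Idi1* counts per *Fdps* count in wildtype mice 9055 and 9056. The ratio was 2.24, 1.19 and 1.03 in null mice 8637, 9210 and 9121, and it does not depend on the scaling of the libraries. All 3 lay below both controls. This had to be so, because *Idi1* was lower and *Fdps* higher in every null mouse, and it adds no separate evidence.

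*Hmgcs1*, the synthase that builds HMG-CoA from acetyl units, was at 825, 527 and 381 CPM in the null mice and at 955 and 1011 CPM in the wildtype mice. The null mice were lower but far apart from each other, and the log2 fold change of -0.77 (SE 0.306) did not pass (adjusted p = 0.188). Mouse 8637 alone against the wildtype mice gave -0.25 for *Hmgcs1*, and the other 2 null mice without it gave -1.11 (adjusted p = 0.0133). Mouse 8637 lay nearest to the wildtype mice, so its removal had to widen the difference, and that p is not separate evidence. Over all genes, 20.1% passed the FDR threshold without 8637, against 0.678% with all mice. With any other mouse left out instead, *Hmgcs1* was at -0.54 to -0.81. The adjusted p was 0.420 and 0.245 where that mouse was null. *Mvd*, the decarboxylase that yields isopentenyl diphosphate, ran from 32.2 to 49.3 CPM in null and from 55.6 to 68.5 CPM in wildtype mice (log2 fold change -0.62, SE 0.190, adjusted p = 0.128). *Acat2*, which condenses acetyl-CoA units, was also lower in every null mouse, at 47.1 to 69.8 CPM against 70.8 to 75.6. *Pmvk*, the phosphomevalonate kinase, was higher in every null mouse, at 17.3 to 21.2 CPM against 13.3 to 13.9, with an adjusted p of 0.133. *Mvk*, the kinase of the step before, overlapped between the groups (log2 fold change -0.11, SE 0.126). Summed over the 7 genes, mevalonate pathway mRNA was 1096, 768 and 577 CPM in the null mice and 1302 and 1397 CPM in the wildtype mice, a sum that *Hmgcs1* dominates.

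**Figure D2:**
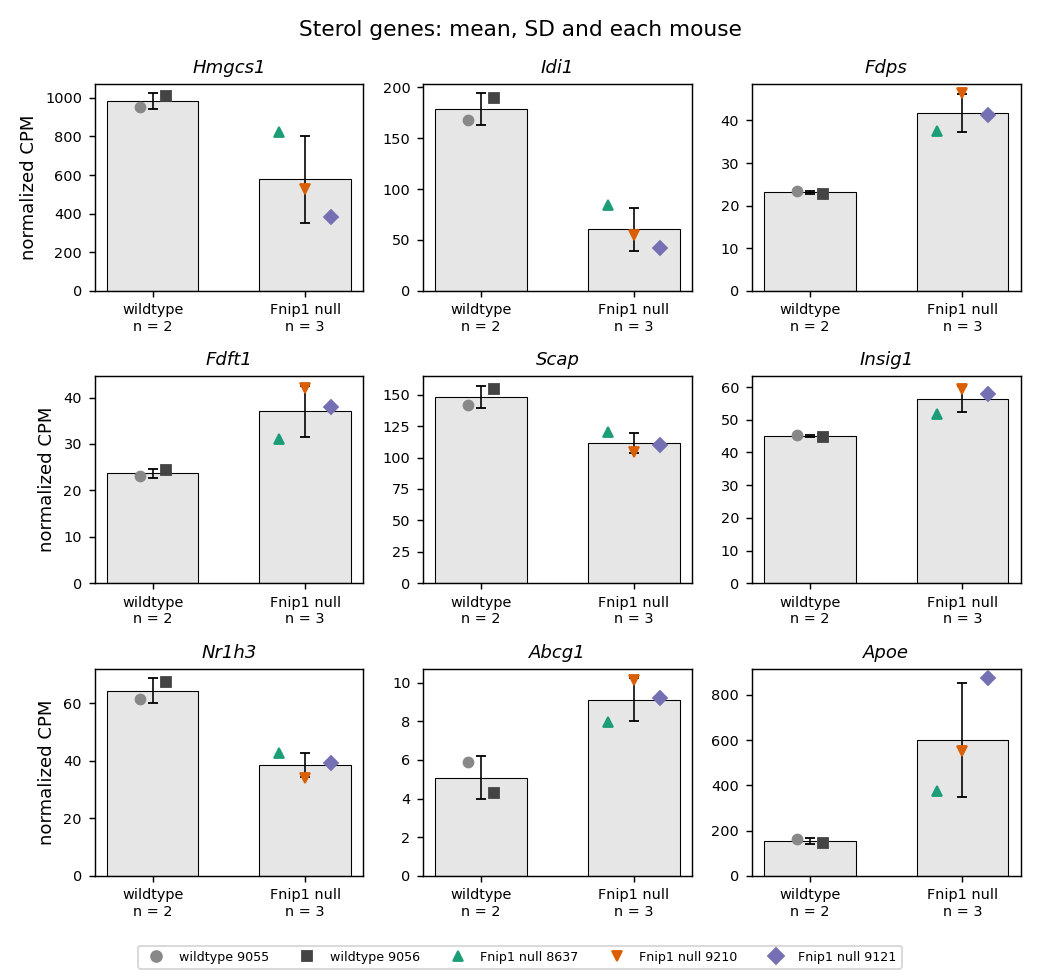
Normalized CPM (y axis, from 0) of 9 sterol genes in wildtype (n = 2) and *Fnip1* null (n = 3) kidneys; bars are means, error bars SD and symbols single mice. The groups do not overlap for any of the 9, and the null mice are spread most widely for *Hmgcs1* (381 to 825 CPM) and *Apoe* (376 to 873 CPM).

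Past farnesyl diphosphate, the 11 enzymes from squalene synthase to the last reductase had a median log2 fold change of -0.23, and none passed the FDR threshold. *Fdft1*, squalene synthase, takes farnesyl diphosphate into the sterol branch and went the same way as *Fdps*, at 31.1, 41.9 and 37.9 CPM in null mice 8637, 9210 and 9121 and at 23.0 and 24.3 CPM in the wildtype mice. The groups were apart (log2 fold change 0.64, SE 0.147), with an adjusted p of 0.0872. Of the exon bases of *Fdft1*, 18.3% are shared with *Ctsb* on the opposite strand, and the strand setting of the counting is not given. *Ctsb* was at 925 to 1026 CPM in null and 840 to 890 CPM in wildtype mice (log2 fold change 0.18, SE 0.131), and its part in the *Fdft1* value was not tested.

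*Cyp51*, the lanosterol demethylase, was at 246, 185 and 294 CPM in the null mice and at 317 and 407 CPM in the wildtype mice. It was lower in every null mouse without passing the threshold (log2 fold change -0.58, SE 0.209, adjusted p = 0.161). *Sqle*, the epoxidase known as a rate-limiting step of this branch, was at 94.6, 68.3 and 65.2 CPM in the null mice and at 87.1 and 88.4 CPM in the wildtype mice. Here the groups overlapped: mouse 8637 was above both controls and the other 2 null mice were below them. The log2 fold change of *Sqle* was -0.21 (SE 0.170, adjusted p = 0.477) over all mice, 0.11 for mouse 8637 alone and -0.39 without it (adjusted p = 0.0262). That last value had to be further from 0, because the mouse removed was the null mouse above the controls, and its p is not separate evidence. With any other mouse left out instead, *Sqle* was at -0.11 to -0.22. The adjusted p was 0.762 and 0.760 where that mouse was null.

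Of the remaining 8 enzymes of this branch, 4 were lower in every null mouse, beside 23% of all genes. The differences were small. The 4 were *Nsdhl* (log2 fold change -0.27, SE 0.0904) and *Ebp* (-0.33, SE 0.131), a sterol dehydrogenase and isomerase, and the reductases *Tm7sf2* (-0.29, SE 0.147) and *Hsd17b7* (-0.23, SE 0.131). *Msmo1*, the sterol methyl oxidase, was higher in every null mouse, at 28.3 to 31.2 CPM against 24.6 to 26.1 (0.24, SE 0.102). *Lss*, which closes the rings, the desaturase *Sc5d* and the reductase *Dhcr7* overlapped between the groups, with log2 fold changes of 0.18, -0.32 and -0.08. The adjusted p of these 8 ran from 0.147 for *Nsdhl* to 0.729 for *Dhcr7*.

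None of the 5 SREBP control genes passed the FDR threshold of the quasi-likelihood test, and they lay on both sides of the wildtype mice. *Scap* and *Insig2* were lower in every null mouse (23% of all genes were) and *Srebf2* and *Insig1* higher (22.9% of all genes). By the same test 3 of the 5 had an unadjusted p under 0.05, against 25.1% of all genes. *Scap*, the escort of SREBP, was at 120.1, 104 and 109.9 CPM in null mice 8637, 9210 and 9121 and at 142 and 154 CPM in the wildtype mice. All null mice lay below both controls (log2 fold change -0.41, SE 0.0976, adjusted p = 0.0923). *Insig1*, which retains the Scap and SREBP complex and is itself a target of SREBP, was at 51.7, 59.3 and 57.9 CPM in the null mice and at 45.4 and 44.9 CPM in the wildtype mice. It was higher in every null mouse, 1.25-fold on average, with an adjusted p of 0.127 (log2 fold change 0.32, SE 0.0973). *Srebf2*, the factor that chiefly drives sterol enzymes, was at 117, 109 and 116 CPM in the null mice and at 96.4 and 93.7 CPM in the wildtype mice. Its groups were apart as well, at a log2 fold change of 0.26 (SE 0.0817, adjusted p = 0.130). *Srebf1*, the factor more associated with fatty acid synthesis, was at 40.6, 54.5 and 52.7 CPM in the null mice and at 41.5 and 44.9 CPM in the wildtype mice, so that mouse 8637 was below both controls and the other null mice above them (adjusted p = 0.454). *Insig2* was within 52.4 to 60.5 CPM in all 5 mice.

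The promoters of these genes were read as the 250 bases before each RefSeq transcript start (GRCm38.p6), in which 26 of the 31 genes had an entry. *Fdps*, *Fdft1*, *Sqle*, *Abcg1* and *Stard4* had none. Of the sterol regulatory element, 1 strict form was searched, TCACNCCAC on both strands. It was present in 1 of the 26 genes (3.85%), *Hmgcs1*, and in 1.22% of 27025 genes. Other forms of the element were not searched, so a window without this match may still hold one. The E-box CACGTG was present in 6 of the 26 (23.1%): *Abca1*, *Dhcr7*, *Hsd17b7*, *Insig1*, *Sc5d* and *Scap*, against 6.86% of all genes. CCAAT was found in 20 of the 26 (76.9%) and in 37.5% of all genes, and the GC box GGGCGG likewise in 20 (76.9%) and in 35.4%. A gene counted if any of its windows held the letters, and the 26 genes had 37 windows, the 27025 genes 32851. The 27025 genes were not limited to those tested in these kidneys, so the shares are not matched for expression or for number of windows. Of the 15 synthesis enzymes with an entry, 14 had CCAAT, among them *Pmvk* and *Msmo1*, which were higher in every null mouse. The repeat of AGGTCA with 4 bases between, to which LXR is known to bind, was in none of the 26 genes and in 0.0148% of all genes. Because SREBP is known to act together with factors bound at CCAAT and GC boxes, the windows of 4 enzymes that were lower in every null mouse and of *Insig1*, which was higher, are shown, a choice made after their values were seen. Capitals mark CCAAT or its reverse complement, TCACNCCAC and CACGTG, and sequences run 5′ to 3′ on the strand of the gene. GC boxes are not marked, and none of the marked matches overlaps another.
Hmgcs1, chr13:119690101-119690350, plus strand: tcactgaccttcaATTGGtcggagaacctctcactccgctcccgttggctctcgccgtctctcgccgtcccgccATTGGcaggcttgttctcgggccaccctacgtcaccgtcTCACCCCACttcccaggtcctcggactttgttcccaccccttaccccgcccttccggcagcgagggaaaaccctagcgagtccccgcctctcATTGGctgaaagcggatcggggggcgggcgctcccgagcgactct
Idi1, chr13:8885356-8885605, plus strand: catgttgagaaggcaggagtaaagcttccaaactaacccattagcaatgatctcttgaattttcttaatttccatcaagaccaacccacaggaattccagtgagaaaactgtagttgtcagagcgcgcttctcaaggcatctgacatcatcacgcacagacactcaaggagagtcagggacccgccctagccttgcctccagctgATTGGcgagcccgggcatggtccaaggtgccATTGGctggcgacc
Mvd, chr8:122443423-122443672, minus strand: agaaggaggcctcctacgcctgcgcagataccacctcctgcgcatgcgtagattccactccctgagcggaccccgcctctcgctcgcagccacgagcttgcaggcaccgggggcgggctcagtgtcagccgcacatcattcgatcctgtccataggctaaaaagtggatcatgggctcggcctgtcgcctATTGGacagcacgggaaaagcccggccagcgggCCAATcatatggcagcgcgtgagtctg
Cyp51, chr5:4104698-4104947, minus strand: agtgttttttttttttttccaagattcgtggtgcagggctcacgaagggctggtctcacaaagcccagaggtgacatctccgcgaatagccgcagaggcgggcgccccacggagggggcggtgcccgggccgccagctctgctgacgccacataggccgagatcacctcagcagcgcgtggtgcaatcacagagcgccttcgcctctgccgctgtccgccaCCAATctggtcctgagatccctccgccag
Insig1, chr5:28071162-28071411, plus strand: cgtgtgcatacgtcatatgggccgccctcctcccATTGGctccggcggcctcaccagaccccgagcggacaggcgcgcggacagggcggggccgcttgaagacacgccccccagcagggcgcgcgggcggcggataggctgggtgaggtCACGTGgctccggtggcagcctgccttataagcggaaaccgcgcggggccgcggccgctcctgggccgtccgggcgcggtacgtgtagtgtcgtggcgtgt
The *Hmgcs1* window held the TCACNCCAC match 137 bases before the start, on the same strand. It also held 3 CCAAT copies, all on the opposite strand. *Idi1* and *Mvd* held 2 CCAAT copies each, and *Cyp51* and *Insig1* 1 each, with the E-box of *Insig1* 101 bases before the start. A match of letters is a description of the window and does not show that a factor binds there.

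Among the LXR and efflux genes, the receptor and the exporters did not go the same way. *Nr1h3* (ENSMUSG00000002108, chromosome 2, 91184061 to 91202834, minus strand), which encodes LXR alpha, was at 42.6, 34.2 and 39.1 CPM in null mice 8637, 9210 and 9121 and at 61.3 and 67.4 CPM in wildtype mice 9055 and 9056. The groups were well apart, at 38.6 ± 4.26 (n = 3) and 64.4 ± 4.28 (n = 2), a 1.67-fold lower mean that missed the threshold (log2 fold change -0.74, SE 0.119, adjusted p = 0.0593). *Nr1h2*, encoding the widely expressed LXR beta, was at 77.7 to 89.5 CPM in null and 91.9 to 93.6 CPM in wildtype mice (log2 fold change -0.14, SE 0.0925). *Abcg1*, an exporter of cholesterol to lipoproteins, was at 7.95, 10.2 and 9.23 CPM in the null mice and at 5.90 and 4.29 CPM in the wildtype mice. It was 1.79-fold higher with no overlap (log2 fold change 0.84, SE 0.211, adjusted p = 0.0985). *Abca1*, which exports cholesterol to apolipoproteins, was at 38.7, 46.7 and 44.6 CPM in the null mice and at 41.9 and 34.1 CPM in the wildtype mice. The groups of *Abca1* overlapped (log2 fold change 0.19, SE 0.135, adjusted p = 0.413), and the difference between the changes of the exporters was not tested.

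*Apoe* (ENSMUSG00000002985, chromosome 7, 19696109 to 19699188, minus strand), the apolipoprotein that carries cholesterol between cells, had the widest difference of the 30 genes. It was at 376, 551 and 873 CPM in null mice 8637, 9210 and 9121 and at 165 and 146 CPM in wildtype mice 9055 and 9056. Every null mouse lay above both wildtype mice, and the means of 599.7 ± 252 and 156 ± 13.0 CPM differed 3.86-fold. The spread among the null mice left it outside the threshold (log2 fold change 1.95, SE 0.354, adjusted p = 0.0655). *Stard4*, a carrier of free cholesterol, was at 66.8, 68.8 and 70.5 CPM in the null mice and at 59.3 and 68.6 CPM in the wildtype mice, overlapping. *Soat1*, which esterifies cholesterol for storage, was at 25.6, 27.4 and 22.1 CPM in the null mice and at 26.9 and 26.6 CPM in the wildtype mice, also overlapping. *Lcat*, a plasma enzyme made chiefly in liver, was at 0.124 to 0.369 CPM in the 5 mice, near the level of 3 counts, and no fold is given for it.

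Which sterol genes passed the FDR threshold depended on the test and on the mice. edgeR's exact test called 6 of the 30 (9.82% of all genes): *Fdps*, *Fdft1*, *Abcg1* and *Apoe* higher and *Idi1* and *Nr1h3* lower. Those 6 were also called by edgeR's likelihood ratio test, with *Mvd* as the 7th gene (10.6% of all genes), and by DESeq2, with *Scap* (10.3% of all genes). The legacy form of the quasi-likelihood test (0.735% of all genes), scaling by library size alone (0.807%), RLE normalization (0.678%), no filter on low counts (0.667%) and a filter of at least 1 CPM in 3 mice (0.69%) each called *Fdps* alone.

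Leaving out null mouse 8637 raised the sterol genes called to 12 of 30 (40%), beside 20.1% of all genes. These were *Fdps*, *Fdft1*, *Insig1*, *Abcg1* and *Apoe* higher, and *Idi1*, *Hmgcs1*, *Mvd*, *Sqle*, *Sc5d*, *Scap* and *Nr1h3* lower. In each of the 12, mouse 8637 lay at the wildtype end of the null mice. Its removal had to widen these differences, so the added calls are not separate evidence. Leaving out mouse 9121, the mouse with *Xist* counts, gave 3 (*Apoe*, *Fdps* and *Idi1*, with 1.37% of all genes called). The same 3 genes were called in mouse 8637 alone against both wildtype mice, a comparison added after the values were seen (2.58% of all genes). In that comparison the log2 fold change was -1.08 for *Idi1*, 0.70 for *Fdps* and 1.28 for *Apoe*. With a 2-fold change also required, 3 sterol genes passed without mouse 8637 (10%, against 6.81% of all genes), 2 without 9121 (6.67%, against 0.973%), 2 in mouse 8637 alone (6.67%, against 1.2%) and 1 with scaling by library size (3.33%, against 0.613%). Without 9210 or either wildtype mouse the number was 0, as for all genes (0%).

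**Figure D3:**
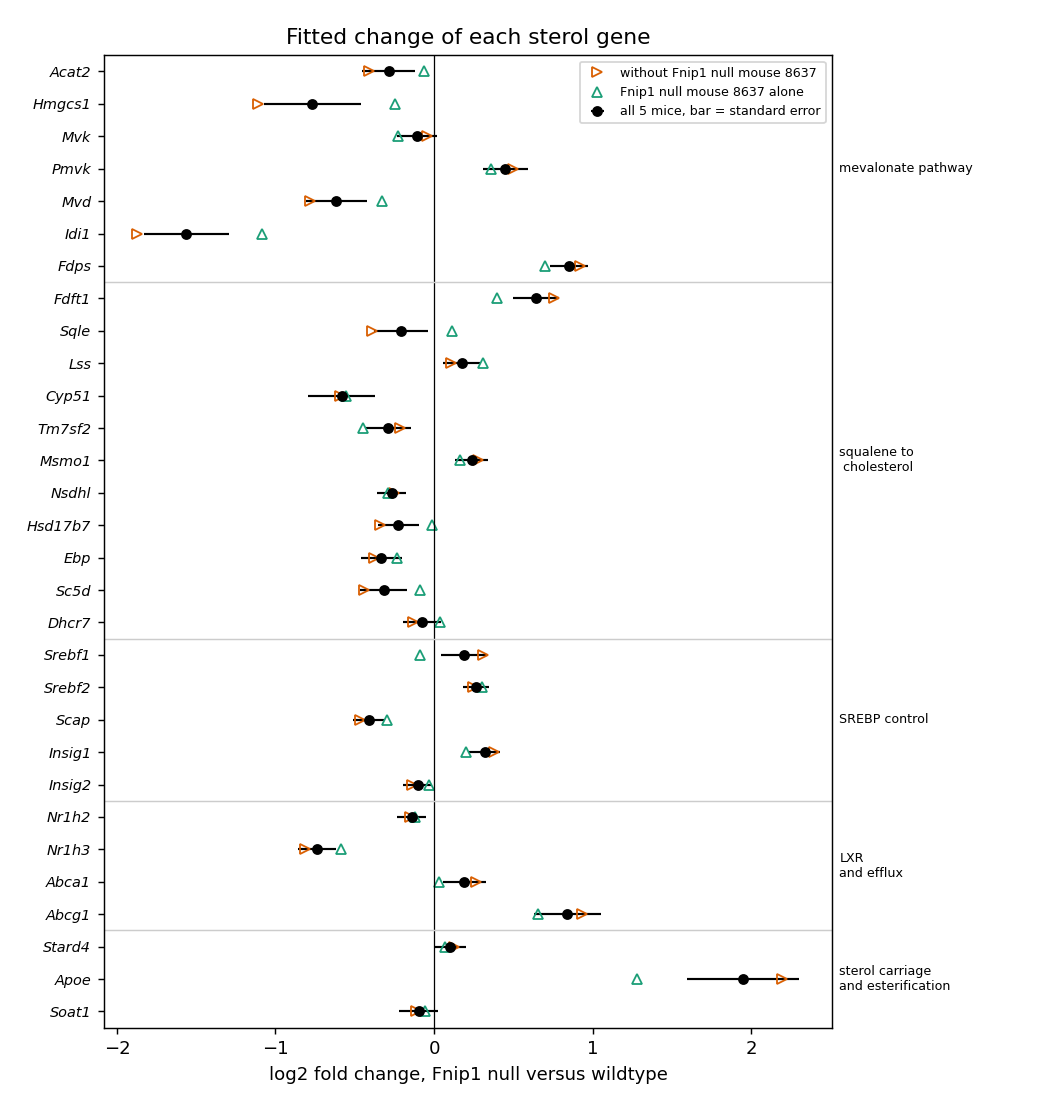
Log2 fold change of each tested sterol gene, *Fnip1* null over wildtype (x axis), by role (y axis), in all 5 mice (black circles, bars are the standard error), without null mouse 8637 (orange triangles) and for mouse 8637 alone against both wildtype mice (green triangles). *Idi1* (-1.87, -1.56 and -1.08) and *Apoe* (2.19, 1.95 and 1.28) keep their direction in all 3 fits, while *Sqle* lies on either side of 0.

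Levels of different genes were set against each other per kilobase of annotated exon. The length joins the exons of all GENCODE transcripts of a gene, and the annotation used in the counting is not known, so the ranks are approximate. In wildtype kidney *Hmgcs1* was the most abundant of the 31 genes, at 214 CPM per kilobase, above 98.4% of the genes tested. *Cyp51* (82.0 CPM per kilobase), *Apoe* (72.8) and *Idi1* (50.9) followed, and the ranges of *Cyp51* and *Apoe* overlapped between the 2 wildtype mice. In *Fnip1* null kidney *Apoe* was first, at 280.5 CPM per kilobase, then *Hmgcs1* at 126 and *Cyp51* at 54.7, while *Idi1* was at 17.2 and 10th. *Fdps* and *Fdft1*, for all their higher values, were among the less abundant enzymes on this scale, at 5.49 and 5.60 CPM per kilobase in wildtype and 9.90 and 8.75 in null mice. *Abcg1* (0.698 and 1.25 CPM per kilobase) and *Lcat* (0.110 and 0.195) were lowest in both genotypes.

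**Figure D4:**
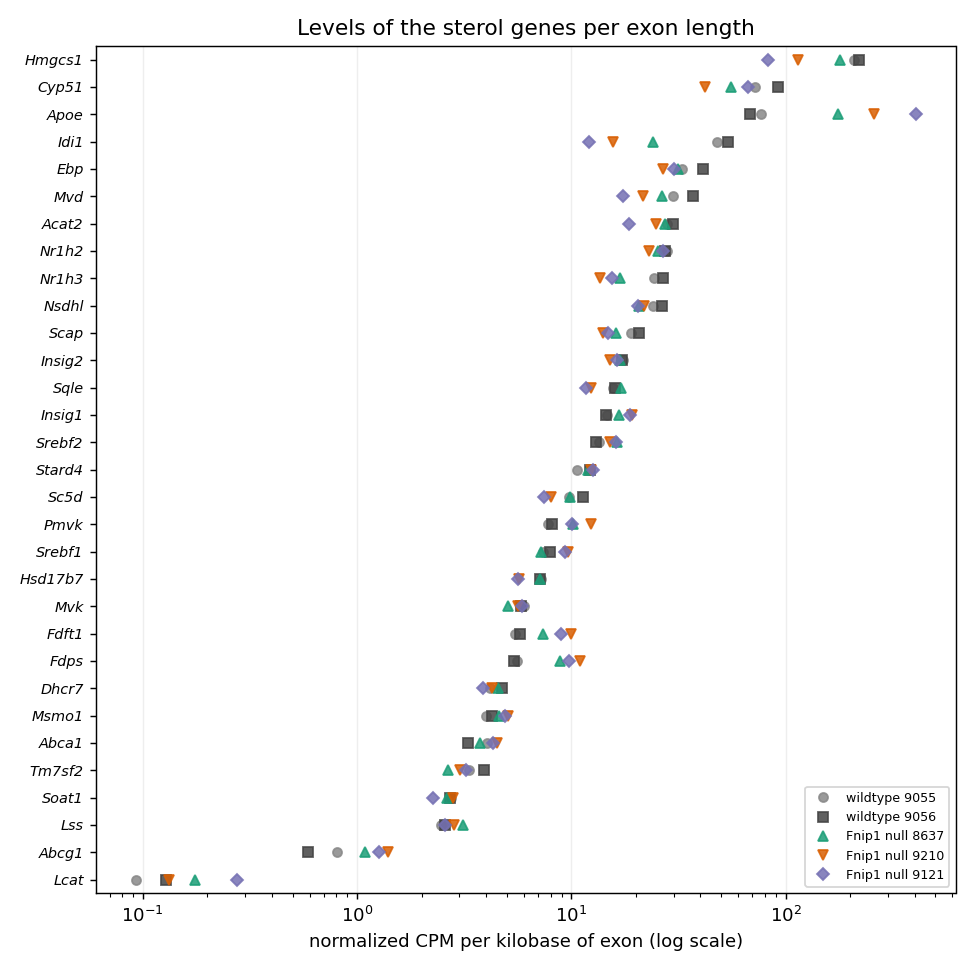
Normalized CPM per kilobase of exon (x axis, log scale) of the 31 sterol genes in each mouse, ordered by the wildtype mean (y axis). Wildtype means (of circles and squares) span from 0.110 CPM per kilobase for *Lcat* to 214 for *Hmgcs1*.

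Further genes of sterol metabolism, in 6 lists, held 63 tested genes. By edgeR's quasi-likelihood test 0 of them passed an FDR of 5% (0.678% of all genes). In the same test 26 had an unadjusted p under 0.05 (25.1% of all genes). The exact test called 14 of the 63 (9.82% of all genes), the likelihood ratio test 16 (10.6%) and DESeq2 16 (10.3%). The list nearest to the enzymes above was sterol and isoprenoid synthesis. It had 8 of 9 tested genes with a negative log2 fold change and a median of -0.38. In this list 6 of the tested genes were lower in every null mouse, beside 23% of all genes. The largest difference in it was for *Pdss1*, which makes the isoprenoid tail of coenzyme Q, at 17.2, 12.8 and 11.6 CPM in null mice 8637, 9210 and 9121 and 24.3 and 28.0 CPM in the wildtype mice (log2 fold change -0.92, SE 0.190, adjusted p = 0.0764). SREBP processing and sterol sensing genes had 7 of 12 negative and a median of -0.11. Lipogenic targets of SREBP1 had 11 of 16 positive and a median of 0.25. *Thrsp*, a lipogenic gene abundant in fat, was the extreme of that list, at 5.65, 29.9 and 14.9 CPM in null and 4.28 and 3.94 CPM in wildtype mice (log2 fold change 2.03, SE 0.669, adjusted p = 0.141).

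LXR partners and targets were divided (3 of 7 positive, median -0.09). *Apoc1*, an apolipoprotein gene neighbouring *Apoe*, was at 2.12, 7.01 and 6.60 CPM in null and 0.683 and 0.857 CPM in wildtype mice (log2 fold change 2.75, SE 0.619, adjusted p = 0.0855). Cholesterol uptake and transport genes had 6 of 11 positive and a median of 0.00. The extreme was *Gramd1a*, a carrier of sterol from the plasma membrane, at 21.8, 23.9 and 24.4 CPM in null mice 8637, 9210 and 9121. It was at 16.2 and 16.1 CPM in wildtype mice 9055 and 9056 (log2 fold change 0.53, SE 0.113, adjusted p = 0.0779). Oxysterol, bile acid and ester cleavage genes had 5 of 8 positive and a median of 0.51. Their extreme was *Cyp7b1*, an oxysterol hydroxylase, at 179, 29.9 and 4.43 CPM in null mice 8637, 9210 and 9121 and 337 and 339 CPM in wildtype mice. The lowest value was in mouse 9121, the mouse with *Xist* counts, and the log2 fold change of -2.25 (SE 1.19) did not pass (adjusted p = 0.285).

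The tissue holds several cell types, and fewer cells of a type cannot be told apart from less RNA per cell in these libraries. The 8 proximal tubule markers were abundant in all mice and summed to 12233, 9838 and 8889 CPM in null mice 8637, 9210 and 9121 and 13016 and 14099 CPM in wildtype mice 9055 and 9056. The list was not uniform: 6 of the 8 had negative log2 fold changes (median -0.33), and 4 were lower in every null mouse (23% of all genes were). *Slc5a12* (log2 fold change 0.63) and *Slc5a2* (0.26) were higher in every null mouse (22.9% of all genes were). The sum of the 18 synthesis enzymes ran in the same order, at 1784, 1356 and 1262 CPM against 2048 and 2278. *Hmgcs1* made up much of it, at 825, 527 and 381 CPM in the null mice and 955 and 1011 CPM in the wildtype mice. The 11 enzymes from squalene to cholesterol did not keep that order among the null mice. They summed to 688, 588 and 685 CPM in null mice 8637, 9210 and 9121 and to 746 and 881 CPM in the wildtype mice. The macrophage list stood beside *Apoe*, which macrophages are known to express. Of its 12 genes, 11 had positive log2 fold changes and 10 were higher in every null mouse (22.9% of all genes were). The median was 1.43. By the quasi-likelihood test 0 of the 12 passed the FDR threshold (0.678% of all genes) and 12 had an unadjusted p under 0.05 (25.1%). edgeR's exact test (9.82% of all genes), its likelihood ratio test (10.6%) and DESeq2 (10.3%) called 9 of the 12 each. *Csf1r* was lower in every null mouse (36.4 to 63.8 against 68.4 to 72.3 CPM). *Adgre1* was at 7.36, 8.97 and 13.7 CPM in null and 3.66 and 3.26 CPM in wildtype mice, in the same order of mice as *Apoe*. The summed macrophage markers were 127, 161 and 268 CPM in null and 135 and 115 CPM in wildtype mice. *Csf1r* made up much of these sums, and the other 11 genes summed to 89.1, 125 and 204 CPM in null and 62.8 and 46.6 CPM in wildtype mice, higher in every null mouse, 8637 included.

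Adipocyte markers were higher in 2 of the null mice, at sums of 347 CPM in 9210 and 162 in 9121, against 54.0 in 8637 and 35.3 to 36.4 in the wildtype mice. In mouse 8637 most of the sum was *Fabp4*, at 48.4 CPM against 31.8 and 25.0 CPM in the controls, while *Adipoq* was at 0.589 CPM beside 0.497 and 1.31 CPM. Podocyte markers were higher in every null mouse for all 5 genes (3 past the FDR threshold, sums of 658 to 773 against 367 to 370 CPM). Endothelial markers were higher in every null mouse for 3 of 5 (260.2 to 338 against 143 to 240.1 CPM). The same held for 6 of 8 distal tubule and collecting duct markers (8392 to 12131 against 7811 to 8699 CPM). Over all genes tested, 22.9% were higher in every null mouse and 0.678% passed the FDR threshold. Adrenal cortex markers, which would mark steroid-making tissue taken along with the kidney, summed to 2.46 to 5.17 CPM in the 5 mice, and 2 of the 8 were at 0 in all of them. The part of cell composition, of sex and of surrounding fat in the sterol gene values was not tested.

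**Figure D5:**
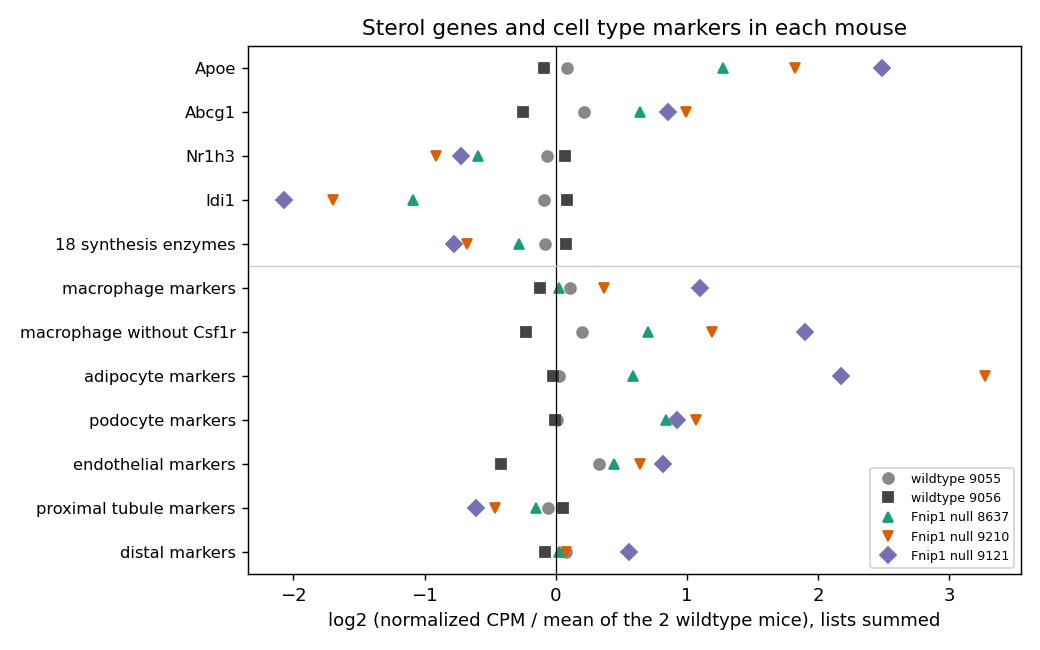
Log2 of normalized CPM over the mean of the 2 wildtype mice (x axis) in each mouse, for 4 sterol genes and the summed 18 synthesis enzymes (top) and for summed cell type marker lists (bottom). *Apoe* and the macrophage markers without *Csf1r* lie to the right in all 3 null mice, while with *Csf1r* the macrophage sum of null mouse 8637 lies between those of the wildtype mice.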

How the data were processed

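RNA was measured by the authors in cortical kidney tissue of 3 *Fnip1* null and 2 wildtype mice. Per the labels and methods, libraries were made with a TruSeq RNA kit and sequenced as read pairs, low-quality reads were removed, reads were aligned to mm10 with TopHat2 2.1.0, and the deposited values are raw counts per gene symbol from HTSeq 0.6.1. The annotation and strand setting of the counting are not given in the sources used here. Reads that aligned to more than 1 place were 28.3 to 31.4% and reads outside genes 9.91 to 10.8% of the count files, and these rows were left out of library sizes.

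Genes with fewer than 10 counts in more than 2 of 5 mice were left out, which kept 13874 of 24421. Counts were normalized by TMM (factors 0.914 to 1.09) and the genotypes compared with edgeR 4.0.16 (quasi-likelihood test, Benjamini-Hochberg adjustment over all genes tested, two-sided) in R 4.3.3 with limma 3.58.1. The p-values set the difference between the genotypes against the spread between mice within a genotype, estimated with information shared across genes. Mouse 9121, with its *Xist* counts, is part of that spread. An exact permutation test of 3 against 2 mice cannot go below p = 0.1 and was not used. The 3-count level covers counting error only. Alternatives were DESeq2 1.42.0, the exact test and the likelihood ratio test of edgeR, other normalizations and filters, and leaving out each mouse. Same-group libraries correlated at 0.972 to 0.992 (log2 CPM, across genes, which are not independent replicates) and differed by more than counting noise (chi-square per degree of freedom 9.58 to 67.0 over 4 pairs). The scripts were tested on simulated data. Positions and exon lengths are those of GENCODE M21 (GRCm38, the assembly of mm10), matched by symbol for 13371 of the genes tested, and promoter sequences are from RefSeq.

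The sterol genes and all lists were chosen with earlier results of these data known. Values per mouse are given for each sterol gene called, the 2 with the largest change in each role, and *Hmgcs1*, *Sqle*, *Insig1*, *Srebf1*, *Srebf2*, *Nr1h3*, *Abca1* and *Soat1*, and outside the set for the gene with the largest change in each list. The gene this rule names in 1 of the 6 lists is not reported here.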

Additional observations from a re-analysis of the deposited data

How the results depend on the processing

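The number of sterol genes past an FDR of 5%, which was 1, was 7 with DESeq2, 6 with the exact test and 7 with the likelihood ratio test of edgeR, 0 to 12 when each mouse was left out, and 3 for null mouse 8637 alone against both wildtype mice, a comparison chosen after seeing the data. With a 2-fold change also required, the number was 0. It was 2 with each of those 3 tests, 1 with scaling by library size, 0 to 3 when each mouse was left out and 2 for mouse 8637 alone. Scaling by library size moved the median of all genes by 0.16 on the log2 scale. The median of the sterol genes moved with it from -0.11 to 0.0574, that of the enzymes from squalene to cholesterol to -0.0692, of SREBP control to 0.359, of LXR and efflux to 0.188, and of sterol carriage to 0.270. The same scaling turned *Mvk* (0.0582), *Dhcr7* (0.0855), *Insig2* (0.0566), *Nr1h2* (0.0207) and *Soat1* (0.0639) to a positive sign, none of them above the shift of all genes. For mouse 8637 alone the medians were -0.0451 for all sterol genes, -0.0111 from squalene to cholesterol, -0.0319 for SREBP control and 0.0668 for sterol carriage, and *Sqle* (0.113), *Dhcr7* (0.0359) and *Srebf1* (-0.0873) changed sign. The median of sterol carriage was 0.441 with no filter, which adds *Lcat*, and -0.0020 to 0.209 when each mouse was left out. Without each mouse in turn, *Stard4* ran from -0.0020 (without wildtype mouse 9055) to 0.209 and *Dhcr7* from -0.168 to 0.0157 (without 9056). Over 30 genes and 14 alternatives, direction and call were kept in 375 cases, a call was gained in 32 and lost in 3 (*Fdps*, without null mouse 9210 or either wildtype mouse), and the sign turned in 10. Where 1 mouse was left in a group, it was assumed to vary like the other group. No paired analysis was possible because the labels number the mice individually and the groups share no number. Depth limited *Lcat* alone among the 31 genes. The SE of *Hmgcs1* was 0.306 with all mice and 0.174 without 8637.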
